A study of Mus musculus with 18 samples.

Results

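The genes described here encode the proteins of the cytosolic ribosome. They were chosen by symbol, with earlier results of these data known. A probe set had to name 1 gene. The gene's symbol had to be Rpl or Rps followed by a number and at most 1 letter, or Rplp0, Rplp1, Rplp2 or Rpsa. This gave 46 members among the 18193 genes tested, 24 of the large subunit and 22 of the small subunit, each represented by its probe set of highest mean signal over the 18 arrays. The reference gene table holds 81 protein-coding genes that fit the same symbols. Of these, 45 are members, 28 lie only on probe sets that carry several gene symbols, and 8 lie on no probe set. The remaining member, Rps4l, is listed there as a transcribed pseudogene.

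Crypts of the small intestine were taken from mice 2 months old, and their total RNA, tagged with biotin, was read on microarrays. The groups were control (4 arrays), E2f TKO, in which E2f1, E2f2 and E2f3 were deleted (5 arrays), Myc KO, in which Myc was deleted (4 arrays), and E2f/Myc QKO, in which all 4 genes were deleted (5 arrays, QKO below). Deletion used Ah-cre, an inducible Cre under the Cyp1a1 promoter that acts in the intestine, and crypts were collected 2 days afterwards. The same statement on Cre stands on every sample, controls included, but the alleles of the controls are not spelled out. Nothing in the labels says that the arrays of a group came from separate mice, so p-values measure the spread between these samples, which may be partly technical.

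A ribosome is built from ribosomal RNA and a copy of most ribosomal proteins, so their genes are read at high and matched rates in growing cells. Their messenger RNAs start with a run of pyrimidines, the 5' TOP tract, through which growth signals set how strongly they are translated. Myc is a transcription factor known to drive ribosome production, and E2f1, E2f2 and E2f3 are transcription factors of the cell cycle. Crypts hold the dividing stem and progenitor cells of the intestinal lining, in which both kinds of factor are active.

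The promoters are shown first, because the 5' TOP tract, where present, begins at the start site and the motifs counted below were searched there. Windows were taken from RefSeq (GRCm38.p6), 250 bases before to 50 bases after a start. Of the 46 members, 40 matched, with 48 windows. The 30 bases below run from 20 before the start to 10 after it, 5' to 3' on the gene's strand, with capitals for a run of at least 7 C or T that touches the 10 bases on either side of the start. The first 5 genes were lower without Myc, and the last 4 did not pass the test on their brightest probe set, the one used for each gene.
Rpl37 (chr15:5116593-5116622, plus strand): gaagtagtttcctgggcggaagcttatcca
Rpl14 (chr9:120571497-120571526, plus strand): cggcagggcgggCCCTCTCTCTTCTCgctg
Rps6 (chr4:86857358-86857387, minus strand): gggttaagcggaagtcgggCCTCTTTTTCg
Rpl35 (chr2:39005122-39005151, minus strand): gaagtcggccccgCCCTTTCCTCTTTCTCT
Rps18 (chr17:33955656-33955685, minus strand): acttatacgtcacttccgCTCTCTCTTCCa
Rpl27a (chr7:109519175-109519204, plus strand): cgcgagacttcgtgagCTCCTCCCTTTTCC
Rps27l (chr9:66946066-66946095, plus strand): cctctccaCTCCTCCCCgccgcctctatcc
Rpl41 (chr10:128549159-128549188, minus strand): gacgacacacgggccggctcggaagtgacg
Rps28 (chr17:33824553-33824582, minus strand): tcctgggtaccgcgtgcggtctcgcgagag
Both kinds of window occur in both sets: Rpl14, Rps6, Rpl35 and Rps18 hold such a run and so do Rpl27a and Rps27l, while Rpl37 has none in this window and neither have Rpl41 and Rps28. The run of Rps27l lies wholly before the start. Rpl27a and Rpl41 were picked for display after their values were seen.

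Over all member windows, 47.9% held such a pyrimidine run, against 20.2% of the 32851 windows in the whole table. The stricter form, C at the start base followed by 4 of C or T, stood in 16.7% of member windows and 2.51% of all. The start base is that of RefSeq and was not measured in these crypts. A missing match therefore does not show that the tract is absent. The run was present in 15 of the 25 matched members called lower in Myc KO and in 8 of the 15 not called, each on its brightest probe set. Members not called are not shown to be unchanged, since 45 of the 46 members had a difference below 0. Motifs were searched on both strands of the 300-base windows. CCGGAAG, a core bound by Ets factors, was found in 41.7% of member windows and 8.86% of all, and in 12 of the 25 called members and 8 of the 15 others. CTCGCGAG, a palindrome common in housekeeping promoters, was found in 14.6% against 0.919%, in Rpl10a, Rpl12, Rpl27a, Rps19, Rps28 and Rps6. CACGTG, the E-box to which Myc with its partner Max binds, was found in 10.4% against 7.15%, in the 4 members Rpl13a, Rpl14, Rpl19 and Rps19. Any of TTTCGCGC, TTTGGCGC, TTTCCCGC and TTTGCCGC, forms of the E2F site, was found in 2.08% against 2.26%, in Rpsa alone. A match is a string of letters, and its presence or absence says nothing of binding.

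To show the Ets core in place, the 100 bases before the start follow for 2 members that fell without Myc, Rpl37 and Rps6, and for Rpl41, which did not pass the test, with CCGGAAG in capitals.
Rpl37 (chr15:5116513-5116612, plus strand): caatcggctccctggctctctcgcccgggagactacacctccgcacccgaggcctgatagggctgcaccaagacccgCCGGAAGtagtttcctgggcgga
Rps6 (chr4:86857368-86857467, minus strand): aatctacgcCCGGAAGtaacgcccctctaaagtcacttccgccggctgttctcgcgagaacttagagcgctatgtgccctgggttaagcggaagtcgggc
Rpl41 (chr10:128549169-128549268, minus strand): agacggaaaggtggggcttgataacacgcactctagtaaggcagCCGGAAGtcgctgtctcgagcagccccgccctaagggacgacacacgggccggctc
The core lies close to the start in Rpl37 and farther upstream in Rps6, and Rpl41 carries it as well.

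Signals are log2 values, so a difference of 1 is a doubling. The median signal of an array ran from 6.14 to 6.19 where Myc was intact and from 6.22 to 6.26 where it was deleted. Myc itself read 9.69 to 10.30 in controls, 9.99 to 10.66 in E2f TKO, 8.11 to 8.40 in Myc KO and 7.94 to 8.52 in QKO. The E2f signals did not show the stated deletions as clearly. E2f1 read 7.70 to 8.05 in controls, 7.48 to 7.84 in E2f TKO and 7.73 to 8.27 in QKO, and E2f2 read 8.91 to 9.28, 8.61 to 9.16 and 9.18 to 9.41. In QKO E2f3 was lower than control (-0.64 ± 0.19, limma adjusted p = 0.0192), while E2f1 and E2f2 differed by 0.18 and 0.15 (adjusted p = 0.245 and 0.443 in limma). In E2f TKO none of the 3 passed the test (limma adjusted p = 0.321, 0.707 and 0.816). Whether these probe sets lie in the deleted exons is not given in the sources used here, so E2f TKO and QKO stand for the groups so labelled. All 12 crypt epithelium markers were measured, with list means from 11.34 to 12.08 over the 18 arrays, while the fibroblast and smooth muscle list lay near the array medians, at 5.87 to 6.63. The arrays labelled E2f TKO 2 and 5 stand apart. Their E2f3 signals were 9.35 and 9.10, above every control (8.62 to 8.96), and their Cyp1a1 signals 5.05 and 4.91, where the remaining 16 arrays read 12.66 to 14.09. Both were kept under their labels. The counts of called members in comparisons that rest on E2f TKO are also given without them. Other E2f TKO results, such as intervals, probe set counts and gene lists, include both arrays unless stated. Most members were bright: 33 had a mean signal above 13, 10 lay between 6.5 and 13, and 3 lay below 6.5, under the array medians. The last are Rps16 (3.69), Rpl3l (4.07) and Rpl39l (4.17), for which no detection call was used and a level above background is not shown. The brightest value in the table is 14.81.

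The first question was how far ribosomal protein transcripts depend on Myc. Ribosomal protein transcripts of both subunits were lower without Myc. Of the 46 members, 28 fell and 0 rose (60.9%), where 4.72% of all genes tested were called lower and 3.59% higher (limma, Benjamini-Hochberg adjusted p below 0.05 over 18193 genes). The median difference was -0.32, against 0.02 for all genes, and members ranged from -1.27 to 0.19. Differences below 0 were seen in 45 of 46 members and in 46.0% of all genes. Every Myc KO array was below every control array for 41 of 46 members (89.1%), where 11.8% of all genes showed this. The large subunit had 15 of 24 members lower (median -0.33) and the small subunit 13 of 22 (median -0.30). Because whole crypts were sampled, fewer cells of a type and less RNA per cell cannot be told apart.

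**Figure D1:**
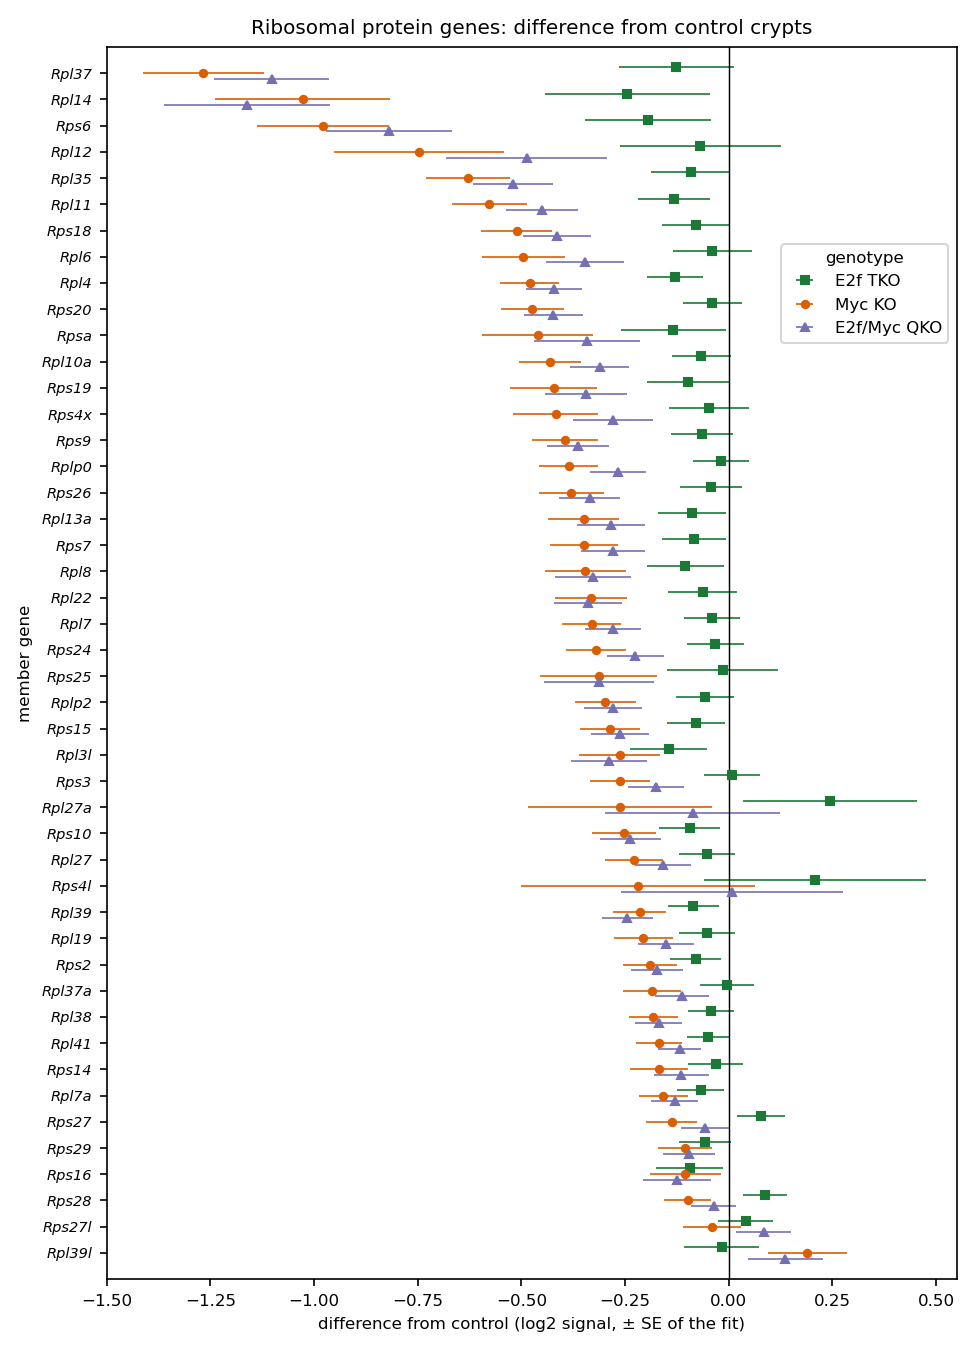
Difference of each genotype from control for the 46 members (horizontal axis, log2 signal; points are differences and bars the SE of the limma fit; members ordered by the difference in Myc KO). Rpl37 lies lowest in Myc KO at -1.27 and Rpl39l highest at 0.19, the QKO points run from -1.16 to 0.14, and the E2f TKO points lie around a median of -0.06.

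On the probe set used for each gene, the members that fell most were of intermediate signal. Dimmer probe sets of some other members fell as far, as given below for Rpl13a, Rpl27 and Rps3. Rpl37, a small protein of the large subunit, read 11.53, 11.68, 11.57 and 11.65 in the control arrays and 10.30, 10.06, 10.40 and 10.60 in the Myc KO arrays. The lowest control lay well above the highest Myc KO array. The difference was -1.27 ± 0.15 (SE), a change of -58.4% (limma adjusted p = 0.000121). Rpl14, also of the large subunit, read 8.41, 8.65, 8.31 and 8.76 in controls and 7.44, 7.31, 7.52 and 7.74 in Myc KO. These groups did not overlap either, and Rpl14 fell by 1.03 ± 0.21 on the log2 scale (limma adjusted p = 0.00719). Rps6, the small-subunit protein phosphorylated by S6 kinases downstream of mTOR, read 10.03, 10.31, 10.06 and 10.14 in controls and 9.15, 8.92, 9.24 and 9.31 in Myc KO. It was lower in all 4 Myc KO arrays than in any control, with a difference of -0.98 ± 0.16, a change of -49.2% (limma adjusted p = 0.00181).

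Among the bright members of the large subunit, Rpl35, which sits near the exit of the peptide tunnel, changed by -0.63 ± 0.10 (limma adjusted p = 0.00170). Rpl4, whose loop lines that tunnel, read 14.08, 14.10, 14.11 and 14.17 in controls and 13.69, 13.50, 13.64 and 13.70 in Myc KO. The control arrays differed among themselves by far less than they differed from the Myc KO arrays. Its difference was -0.48 ± 0.07 (limma adjusted p = 0.00102). Rpl11, which with 5S RNA can hold Mdm2 and so stabilise p53, read 13.13, 13.24, 13.15 and 13.26 in controls and 12.68, 12.51, 12.58 and 12.69 in Myc KO, again with no overlap. It changed by -0.58 ± 0.09 (limma adjusted p = 0.00146), and the gene lies 0.123 Mb from E2f2, a distance that bears on the E2f genotypes only. Rpl6 (-0.50 ± 0.10) and Rpl10a (-0.43 ± 0.08) also fell. Rpl8 (-0.35 ± 0.10) fell and lies 14.9 Mb from Myc on chromosome 15.

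The stalk proteins, which draw translation factors to the large subunit, were lower as well. Rplp0, the base of the stalk, read 14.28, 14.38, 14.30 and 14.37 in controls and 14.02, 13.79, 13.98 and 14.00 in Myc KO. All Myc KO arrays lay below all controls, and array 2 lay lowest. The difference was -0.39 ± 0.07 (limma adjusted p = 0.00388). Rplp2, one of the acidic proteins attached to it, changed by -0.30 ± 0.07. Rpl12 forms the stalk's base with Rplp0 and changed by -0.75 ± 0.20 (limma adjusted p = 0.0322); it is named after its values were seen.

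In the small subunit, Rps20 of the head read 13.66, 13.72, 13.73 and 13.79 in controls and 13.32, 13.09, 13.24 and 13.36 in Myc KO. The groups did not overlap, and the difference was -0.47 ± 0.08 (limma adjusted p = 0.00150). Rps18, also of the head, changed by -0.51 ± 0.09 (limma adjusted p = 0.00212). Rps19, the gene most often mutated in Diamond-Blackfan anaemia, changed by -0.42 ± 0.10 and Rps4x, encoded on the X chromosome, by -0.42 ± 0.10. Rpsa, which also serves as a laminin receptor, changed by -0.46 ± 0.13, and Rps3, at the mRNA entry channel, by -0.26 ± 0.07.

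**Figure D2:**
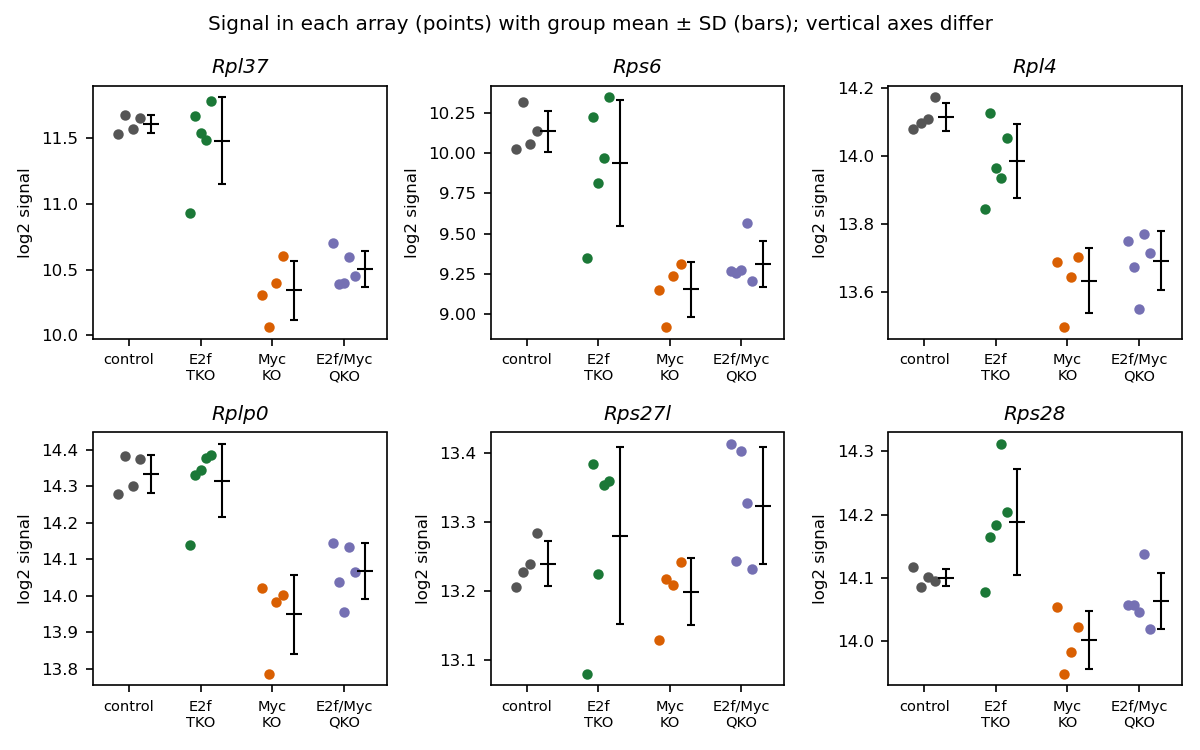
Log2 signal of 6 members in each of the 18 arrays (points), with the group mean and SD beside them; the vertical axes differ between panels and do not start at 0. For Rpl37, Rps6, Rpl4 and Rplp0 all Myc KO and QKO arrays lie below all controls, and Rps27l and Rps28 show the smallest contrast.

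The size of the count rests on few arrays. It was 17 without control 2, 16 without control 4 and 14 without Myc KO 2, and ran to 33 without E2f TKO 1. The share of all genes called lower moved too, to 2.69%, 2.23%, 2.13% and 7.26% in these fits, against 4.72% with all arrays. Rpl37, Rpl14, Rps6, Rpl35, Rpl11, Rpl4, Rpl6, Rpl10a, Rplp0, Rps18 and Rps20 kept their call whichever array was left out. Others did not. Rplp2 missed the threshold without control 4 or Myc KO 2 (limma adjusted p 0.0656 and 0.0730), and Rps19 and Rps4x without control 2, control 4 or Myc KO 2 (0.0571 to 0.0803, and 0.0558 to 0.0700). Rps3 missed it without control 2, 3 or 4 or Myc KO 2 or 3 (limma adjusted p 0.0553 to 0.115), and Rpl8 without control 2, 3 or 4 or any 1 Myc KO array (0.0553 to 0.118). Rpl22 missed it without control 2, 3 or 4 or Myc KO 1 or 2 (0.0518 to 0.0881). Rpsa did so in 9 of the 18 such fits (0.0507 to 0.134) and Rpl39 in 13 of 18 (0.0506 to 0.142).

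Some values moved with these groups. The actin 3' minus 5' probe difference, a measure of RNA integrity, was 0.31 to 0.44 in controls, 0.18 to 0.22 in Myc KO arrays and 0.19 to 0.31 in QKO. In E2f TKO it ran from 0.26 to 0.78, with the highest value in array 2. The same difference for Gapdh was 0.24 in that array, against -0.20 to -0.09 in controls. The mean of the 16 enteroendocrine markers was 8.23 to 8.55 in controls, 8.60 to 8.92 in Myc KO arrays and 8.95 to 9.39 in QKO. It was also above every control in E2f TKO, at 8.85 to 9.02. Of the 16, 2 were higher in Myc KO, 11 in QKO and 5 in E2f TKO, where 3.59%, 14.3% and 1.68% of all genes were higher. The mean of the 10 goblet cell markers was 12.14 to 12.37 in controls, 12.34 to 12.68 in Myc KO and 12.38 to 12.76 in QKO, with 1 and 2 markers higher. In QKO the 4 red blood cell markers averaged 5.69 to 6.17, against 5.56 to 5.69 in controls, and the 12 crypt epithelium markers 11.68 to 12.08, against 11.61 to 11.70. Of the 10 myeloid and mast markers, 2 were higher in Myc KO, 2 lower in QKO and 2 lower in E2f TKO, with 0 called the other way. Of all genes, 12.6% were lower in QKO and 1.22% in E2f TKO. In QKO 3 of 11 fibroblast and smooth muscle markers and 1 of 11 T cell markers were higher, and 0 of either list in Myc KO. Medians of the T cell and B cell lists were 0.42 and 0.38 in Myc KO, with 0 called. The means of these lists overlapped those of controls. The part of these values in the result was not tested. With every array centred on its median, 38 members were lower in Myc KO and 39 in QKO, where 9.05% and 19.5% of all genes were. After quantile normalization 19 and 17 members were lower, and 5.16% and 11.5% of all genes. The median stayed below 0 under each scaling.

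Joint loss of Myc and the E2f genes was compared with the same controls. The count was again 28 of 46 lower and 0 higher (60.9%), with 12.6% of all genes called lower and 14.3% higher. The median difference was -0.28, against 0.03 for all genes, and the range -1.16 to 0.14. All QKO arrays lay below all controls for 36 of 46 members (78.3%), against 13% of all genes. The large subunit had 16 of 24 members lower (median -0.28) and the small subunit 12 of 22 (median -0.25). Because both comparisons use the same 4 control arrays, their values are set side by side without reading a likeness from them.

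Rpl14 read 7.55, 7.09, 7.23, 7.60 and 7.37 in the QKO arrays, all below the lowest control, and differed from control by -1.16 ± 0.20 (limma adjusted p = 0.000452), against -1.03 in Myc KO. Rpl37 read 10.70, 10.39, 10.39, 10.59 and 10.45 in QKO, and differed by -1.10 ± 0.14 (limma adjusted p = 2.99e-05), against -1.27 in Myc KO. Rps6 read 9.27, 9.26, 9.27, 9.56 and 9.21, with 4 arrays close together and array 4 above them. It differed by -0.82 ± 0.15 (limma adjusted p = 0.000806), against -0.98. Rpl4 read 13.75, 13.67, 13.55, 13.77 and 13.71, all below the controls, and differed by -0.42 ± 0.07 (limma adjusted p = 0.000268). Rps20 (-0.42 ± 0.07), Rpl35 (-0.52 ± 0.10), Rpl11 (-0.45 ± 0.09) and Rps18 (-0.41 ± 0.08) fell too. Rplp0 read 14.15, 14.04, 13.96, 14.13 and 14.07, below every control, and differed by -0.27 ± 0.07 (limma adjusted p = 0.00757).

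In all, 25 members were lower in both genotypes, which were compared with the same controls. The share of all genes lower in both was not computed. Rpl12, Rps3 and Rpsa passed the test in Myc KO alone, and in QKO differed by -0.49, -0.18 and -0.34 (limma adjusted p = 0.0724, 0.0639 and 0.0542). Rpl38, Rpl3l and Rps2 (the first and last named after their values were seen) passed it in QKO alone, and in Myc KO differed by -0.18, -0.26 and -0.19 (limma adjusted p = 0.0663, 0.105 and 0.0791). None of these 6 passed the test between QKO and Myc KO in the fit of 1 probe set per gene. The 95% interval of that difference was widest for Rpl12, from -0.15 to 0.67. A difference between the genotypes is thus neither shown nor excluded for them. The other 15 members passed in neither: Rpl19, Rpl27, Rpl27a, Rpl37a, Rpl39l, Rpl41, Rpl7a, Rps14, Rps16, Rps25, Rps27, Rps27l, Rps28, Rps29 and Rps4l. Within QKO, the calls of Rps4x and Rpl3l depended on single arrays: Rps4x missed the threshold in 7 of 18 such fits, without any 1 control or QKO 2, 3 or 5 (limma adjusted p 0.0546 to 0.101), and Rpl3l without control 2, control 3 or QKO 1 (0.0503 to 0.0935).

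Loss of the E2f genes alone gave no member past the test. Of the 46, 0 were lower and 0 higher, where 1.22% of all genes were called lower and 1.68% higher, and 0 members reached an unadjusted p below 0.05 in limma, as 14% of all genes did. The median difference was -0.06, against -0.004 for all genes, and 40 members lay below 0, where 51.4% of all genes did. No member had all E2f TKO arrays below all controls, which 2.54% of genes had. Rpl37 read 10.93, 11.67, 11.54, 11.49 and 11.78 in E2f TKO, which brackets the control range, and differed by -0.13 ± 0.14. Rps6 read 9.35, 10.22, 9.81, 9.97 and 10.34 and differed by -0.19 ± 0.15. In both genes array 1 lay lowest and array 5 highest. The 95% interval of the difference included 0 for all 46 members, with a median lower bound of -0.22 and a median upper bound of 0.11. The count stayed 0 once the arrays labelled E2f TKO 2 and E2f TKO 5 were dropped, with 12 members at an unadjusted p below 0.05 in limma, as 20.8% of all genes were in that fit, and a median of -0.13.

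The array E2f TKO 1 differed from the rest of its group. It was the lowest of the 5 E2f TKO arrays for 42 of 46 members and lay below every control array for 41. The shares of all genes for which this held were not computed. The median member in it was -0.27 from the control mean, against 0.04, -0.08, -0.03 and 0.06 in arrays 2 to 5, and a range from -0.25 to -0.42 over the Myc KO arrays. Rpl14 read 7.41 in it and 8.24 to 8.66 in the other 4. The same array stood 1.35 above the control mean in the T cell list (11 markers), 1.15 above it in the enterocyte list (13 markers), 0.33 below it in crypt epithelium and 0.73 below it in goblet cells. Over the 5 E2f TKO arrays these list means ran from 6.25 to 8.54, 11.96 to 13.57, 11.34 to 12.00 and 11.52 to 11.92, and over the controls from 6.78 to 8.16, 12.15 to 12.63, 11.61 to 11.70 and 12.14 to 12.37. Their part in the low member signals was not tested. Without this array the median difference of the members in E2f TKO was -0.002, with 0 called.

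**Figure D3:**
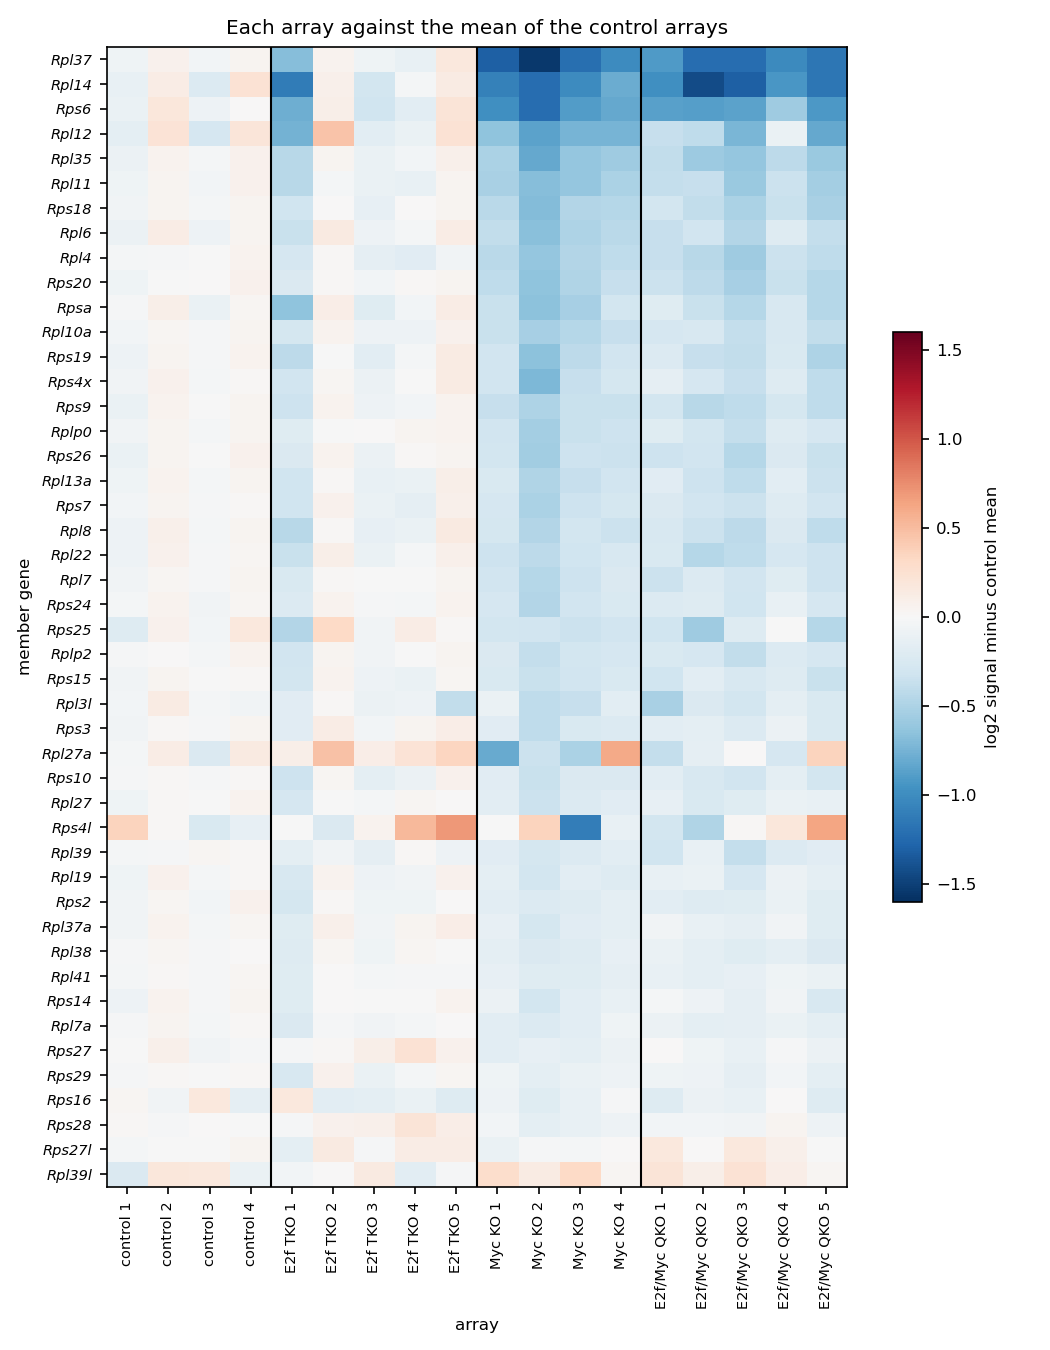
Log2 signal of each member minus its mean over the control arrays (colour), with members in rows, ordered by the difference in Myc KO, and the 18 arrays in columns, grouped by genotype. The Myc KO and QKO columns are lower for most rows. E2f TKO 1 is lower than the other 4 E2f TKO arrays for 42 of 46 members (share of all genes not computed).

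Among Myc KO arrays, array 2 was the lowest for 39 of 46 members, with a median of -0.42, against -0.27, -0.33 and -0.25 in the others. Among controls, array 1 was the lowest for 33. QKO arrays ran from -0.20 to -0.33, closer together than those of Myc KO or E2f TKO. The members thus tended to be low or high together within an array. Shares of all genes were not computed for these counts, so whether other genes did the same is not known.

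Adding Myc loss to E2f loss was read by comparing QKO with E2f TKO. Of 46 members, 16 were lower and 0 higher (34.8%), where 7.95% of genes were called lower and 9.09% higher, with a median of -0.20 against 0.04. All QKO arrays lay below all E2f TKO arrays for 3 of 46 (6.52%), where 3.64% of genes did so. All 16 members called lower were also lower in Myc KO against control. The share of all genes with both calls was not computed. Rpl37 (-0.98) and Rpl14 (-0.92 ± 0.19) fell most, and Rps6 changed by -0.63 ± 0.14 (limma adjusted p = 0.00698). Rps20 changed by -0.38 ± 0.07 (limma adjusted p = 0.00129). The count rested on which E2f TKO arrays entered. It was 34 without E2f TKO 1, and 5 once the arrays labelled E2f TKO 2 and E2f TKO 5 were dropped, where 12.2% and 5.29% of all genes were lower. Rps6 and Rpl11 were among those lost in the latter, the first at an adjusted p of 0.0569 in limma.

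Adding E2f loss to Myc loss was read by comparing QKO with Myc KO. Of the 46 members, 0 were lower and 0 higher in the fit of 1 probe set per gene, where 3.09% of genes were called lower and 4.6% higher, and 0 reached an unadjusted p below 0.05 in limma, as 20.7% of all genes did. The median was 0.06, against 0.01 for all genes, and 40 members lay above 0, where 53.2% of all genes did. The median lower and upper bounds of the 95% interval were -0.11 and 0.21. Rplp0 differed by 0.12 ± 0.07, Rpl6 by 0.15 ± 0.09, Rpl10a by 0.12 ± 0.07 and Rps27l by 0.12 ± 0.07 (limma adjusted p from 0.310 to 0.404). Fitted on every probe set with 1 symbol, 0 member probe sets were lower and 2 higher, where 3.37% of all such probe sets were lower and 3.66% higher. These were 1 of the 3 of Rps27l, at 0.32 ± 0.07 (limma adjusted p = 0.0127), and 1 of the 3 of Rps28, at 0.26 (adjusted p = 0.0275).

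The interaction is the difference of QKO from Myc KO less that of E2f TKO from control, and tests whether both losses added up on the log2 scale. No member passed it, where 0.055% of all genes did in either direction (0.0165% lower and 0.0385% higher), and 1 member, Rpl11, had an unadjusted p below 0.05 in limma (0.26 ± 0.12, adjusted p = 0.786), as 6.34% of all genes had. The median was 0.10, against 0.01 for all genes, and 43 of 46 were above 0, where 53.5% of all genes were. The largest values were 0.35 ± 0.21 for Rps6 and 0.33 ± 0.27 for Rpl12. In a fit once the arrays labelled E2f TKO 2 and E2f TKO 5 were dropped, 0 passed and 13 had an unadjusted p below 0.05, as 9.88% of all genes had, with a median of 0.16. The 95% interval included 0 for 45 of 46 members, with medians of -0.12 for the lower bound and 0.32 for the upper.

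Among members that did not pass the test, the smallest differences were those of a few small-subunit proteins. Rps28 read 14.12, 14.09, 14.10 and 14.09 in controls, 14.05, 13.95, 13.98 and 14.02 in Myc KO and 14.06, 14.06, 14.05, 14.14 and 14.02 in QKO. All Myc KO arrays lay below all controls, but QKO arrays overlapped them. The differences were -0.10 ± 0.06 in Myc KO (limma adjusted p = 0.307) and -0.04 ± 0.05 in QKO (adjusted p = 0.658). Rps29 differed by -0.11 ± 0.07 and -0.10 ± 0.06 on its brightest probe set. Another of its 3 probe sets was lower in both genotypes (-0.26 ± 0.06 and -0.22 ± 0.05, limma adjusted p = 0.00855 and 0.00712 over every probe set), and with the mean of the probe sets Rps29 passed the test in both (-0.18 and -0.16, limma adjusted p = 0.0470 and 0.0252). Rps27 differed by -0.14 ± 0.06 and -0.06 ± 0.06. Rps25 differed by -0.31 ± 0.14 and -0.31 ± 0.13 without passing the test, with a wider spread between arrays. Rpl37a differed by -0.19 ± 0.07 and -0.11 ± 0.07. Rps4l and Rpl27a varied more than the genotypes differed: Rps4l read 10.22 to 10.82 in controls, 9.36 to 10.82 in Myc KO and 9.99 to 11.09 in QKO.

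Several members have a paralogue of narrower use. Rps27l, which p53 can induce, read 13.21, 13.23, 13.24 and 13.28 in controls, 13.13, 13.22, 13.21 and 13.24 in Myc KO and 13.41, 13.24, 13.40, 13.33 and 13.23 in QKO. The groups overlapped, with differences of -0.04 ± 0.07 in Myc KO and 0.08 ± 0.07 in QKO. Its other 2 probe sets were lower in Myc KO, by -0.37 ± 0.08 and -0.32 ± 0.07 (limma adjusted p = 0.00594 and 0.00799 over every probe set), and differed in QKO by -0.05 and -0.13. Rpl22 was lower in both genotypes, by -0.33 ± 0.09 and -0.34 ± 0.08 (limma adjusted p = 0.0259 and 0.00586), and lies 16.2 Mb from E2f2. On dimmer probe sets Rpl22 differed by -0.43 and -1.06 in Myc KO (limma adjusted p = 0.00692 and 0.00187 over every probe set). In QKO these differed by -0.46 and -0.94. Its paralogue Rpl22l1, which the symbol rule leaves out, averaged 12.77 ± 0.11 (SD, n = 4) in controls. Its mean was 11.79 ± 0.21 (SD, n = 4) without Myc and 12.07 ± 0.09 (SD, n = 5) without all 4 genes. It fell by 0.99 ± 0.12 on the log2 scale in Myc KO and by 0.70 ± 0.11 in QKO (limma adjusted p = 0.000212 and 0.000309). Rpl39 of the exit tunnel was lower in both (-0.22 ± 0.06 and -0.24 ± 0.06). Rpl39l, its paralogue known from testis, and Rpl3l, known from muscle, had signals under the array medians, and the called fall of Rpl3l in QKO (-0.29 ± 0.09) rests on such signals.

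The brightest probe set of a gene did not always show the largest difference. The 46 members have 100 probe sets, and 23 members have more than 1. Fitted on all 34945 probe sets with 1 symbol, 63 of the 100 were lower in Myc KO, from 33 of 46 members, where 5.66% of all such probe sets were lower. In QKO 61 were lower (13.1% of all), in QKO against E2f TKO 46 (9.17%), and in E2f TKO 0 (1.07%). In 19 members the second-brightest probe set also had a mean above 8. It lay lower than the brightest in 17 of them in Myc KO, with medians of -0.46 and -0.29, and in 16 in QKO, with medians of -0.37 and -0.24. The examples that follow were chosen after their values were seen. Rpl13a differed by -0.35 in Myc KO on its brightest probe set (mean 13.93) and by -1.46 on its dimmest (mean 10.78; limma adjusted p = 7.79e-05 over every probe set). Rpl27 differed by -0.23 on the brightest, short of the test in the fit of genes, and by -0.96 and -1.30 on the others (limma adjusted p = 0.000440 and 8.56e-05). Rps3 differed by -0.26 at a mean of 13.97, by -1.06 at 8.69 and by -0.07 at 6.66. Whether bright probe sets were near saturation was not tested.

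**Figure D4:**
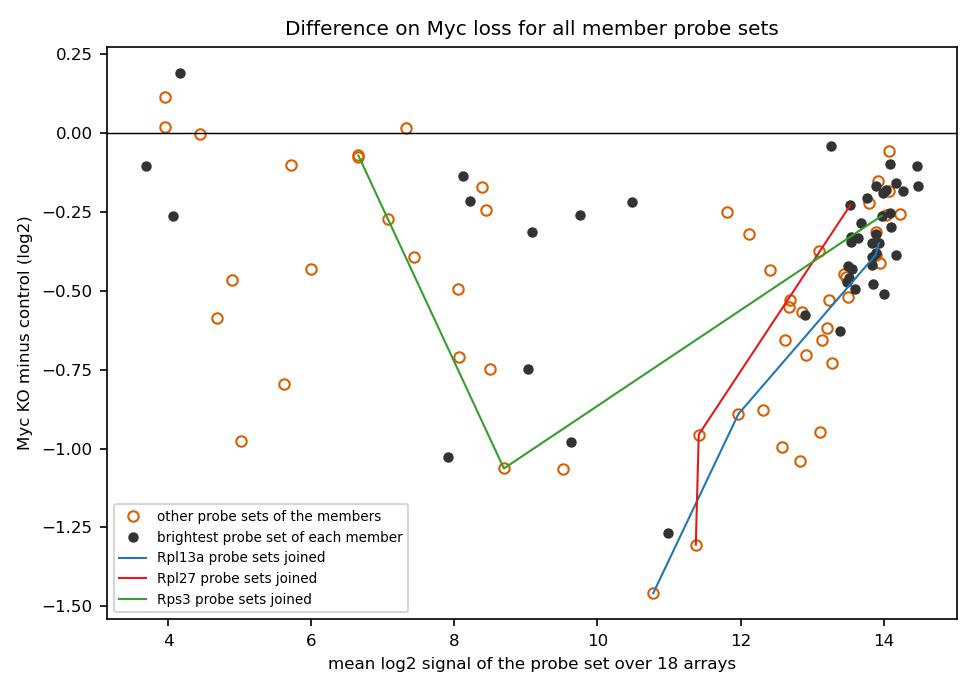
Myc KO minus control (vertical axis, log2) against the mean log2 signal of the probe set over 18 arrays (horizontal axis) for all 100 member probe sets; filled points are the brightest probe set of each member, open points the others, and lines join those of Rpl13a, Rpl27 and Rps3. Values from -0.35 on the brightest to -1.46 on the dimmest probe set of Rpl13a show how far probe sets of 1 gene can differ.

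Where each gene was read by its brightest probe set below a mean of 13, 30 members remained. Of these, 17 were lower in Myc KO and 16 in QKO, with medians of -0.48 and -0.38, where 4.66% and 12.6% of all genes were lower. For 3 of the named members the sign turned. Rps18 had 0.016 in Myc KO on a probe set of mean 7.32, where the probe sets of Rps18 above 13 gave -0.41 to -0.52. Rpsa had 0.019 in Myc KO on a probe set of mean 3.96, and Rps4x had 0.066 in QKO on one of mean 6.65. A further 110 probe sets carry several symbols, at least 1 of which fits the rule. They hold 43 such symbols, of which 28 have no probe set of their own, and cannot be assigned to 1 gene. In a fit on all 45037 probe sets, 85 were lower and 0 higher in Myc KO (5.03% of all lower and 5.71% higher), with a median of -0.41, and 85 lower and 1 higher in QKO (11.3% of all lower and 14.7% higher), with a median of -0.37. In E2f TKO 0 were called, where 0.946% of all were lower and 1.34% higher.

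Other parts of the ribosome's supply line were read from lists of genes chosen with earlier results of these data known. Their counts stand beside 4.72% of all genes lower and 3.59% higher in Myc KO, 12.6% and 14.3% in QKO, and 1.22% and 1.68% in E2f TKO. Some genes stand in more than 1 of these lists, such as Npm1, Naca and Eef1b2, so the counts overlap. Ribosome biogenesis factors of the nucleolus, which make and fold ribosomal RNA, had 37 of 76 lower and 0 higher in Myc KO (median -0.44) and 47 and 0 in QKO (median -0.43). Npm1, a nucleolar chaperone, changed by -1.07 ± 0.16 in Myc KO and Rcl1, which acts in small-subunit assembly, by -0.92 ± 0.14 (limma adjusted p = 0.00127 and 0.00105). In E2f TKO 0 of the 76 were lower and 1, Naf1, was higher (0.76 ± 0.20), with a median of 0.04. Chaperones and assembly factors of ribosomal proteins had 11 of 22 lower in Myc KO and 9 in QKO, with 0 higher. Prmt3, which methylates a small-subunit protein, changed by -0.91 ± 0.16 and Tnpo1, an import receptor, by -0.64 ± 0.13 in Myc KO. Other genes with a 5' TOP tract had 12 of 21 lower in Myc KO (median -0.43) and 14 in QKO (median -0.41), again with 0 higher. Eef1b2, an elongation factor subunit, changed by -0.84 ± 0.12 and Snhg1, a host of small nucleolar RNAs, by -0.82 ± 0.15 in Myc KO.

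Of 16 genes that set the translation of 5' TOP messages, 2 were lower in Myc KO, Eif4ebp2 (-0.33 ± 0.07), a repressor of cap-dependent initiation, and Rheb (-0.34 ± 0.08), an activator of mTOR. In QKO 8 were lower and 1 higher, Rptor (0.26 ± 0.07), a partner of mTOR. Differences between lists were not tested. Mitochondrial ribosomal proteins, which serve a separate ribosome, had 12 of 76 lower in Myc KO (median -0.19), 29 lower and 2 higher in QKO (Mrpl14 and Mrpl46; median -0.18), and 4 lower in E2f TKO (Mrpl48, Mrpl58, Mrps11 and Mrps26). Translation factors had 16 of 58 lower in Myc KO (median -0.23) and 25 lower and 3 higher in QKO (Eif2b1, Eif4e3 and Eif4g3; median -0.24). Eif4g3 was also the only one called in E2f TKO (0.37 ± 0.10). Eif1a, which helps scan for the start codon, changed by -0.95 ± 0.14 in Myc KO. Of 14 p53 pathway genes, 1 was lower in Myc KO, Aen (-0.40 ± 0.11), with a median of 0.01, and 5 were higher in QKO (median 0.25). Trp53inp1 (1.02 ± 0.22), Phlda3 (1.11 ± 0.26) and Eda2r (1.03 ± 0.27), all targets of p53, were among them, with Sesn2 and Zmat3. Rptor, Naf1, Sesn2, Zmat3 and the genes named for counts of 4 or fewer in these lists were named after their values were seen. Rps27l is not in that list.

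**Figure D5:**
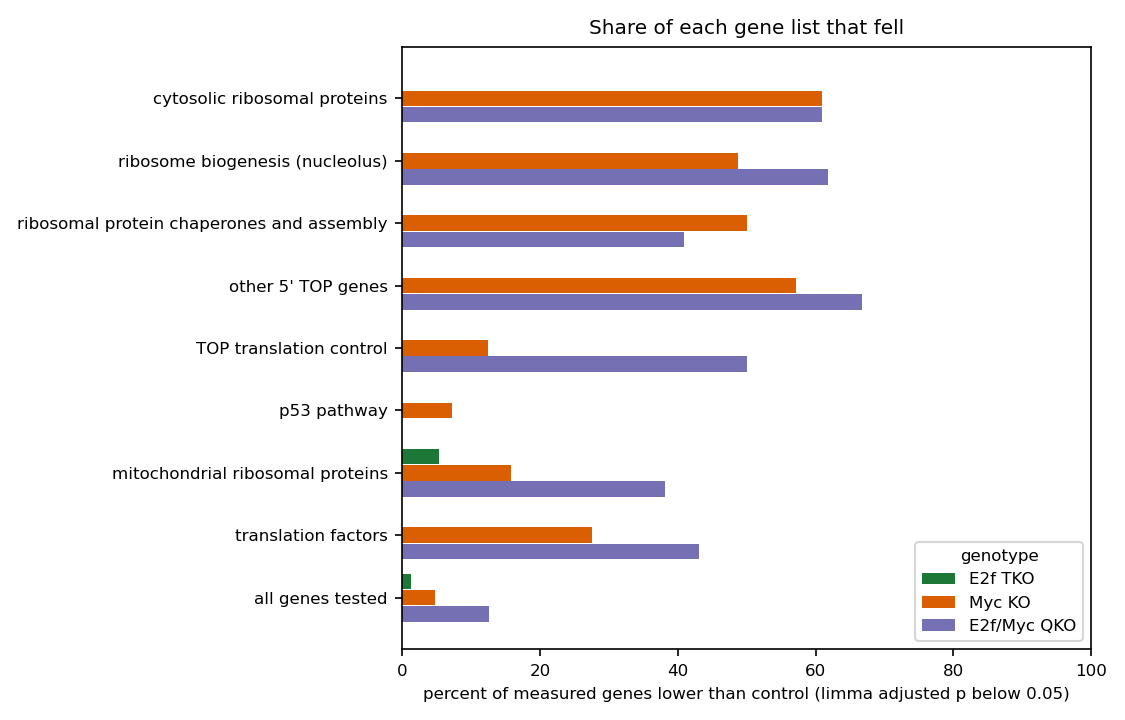
Share of measured genes lower than control (horizontal axis, percent, from 0, at a limma adjusted p below 0.05) in E2f TKO, Myc KO and QKO for the 46 ribosomal protein genes, the other lists and all genes tested; no bar means 0. In Myc KO the shares are 60.9% for the ribosomal proteins and 4.72% for all genes, and in QKO 60.9% and 12.6%.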

How the data were processed

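The authors deposited 1 table of log2 signals for 45101 probe sets on 18 arrays, with values from 2.29 to 14.81. The log2 scale was inferred from the values, and how they were normalized and summarised is not given in the sources used here. All 18 columns matched a sample. Values were used as deposited. Of the probe sets, 64 are controls, 34945 carry 1 gene symbol in the platform annotation, 932 several and 9160 none. A gene was read by its probe set of highest mean, with no filter on dim signals. With limma 3.58.1 under R 4.3.3, 4 group means were fitted jointly (18 arrays), followed by eBayes. Tests were two-sided, and p-values were adjusted by Benjamini-Hochberg over 18193 genes, with a threshold of 0.05. Error values after ± are standard errors of that fit unless marked SD. Scripts were tested on simulated data. Figures used matplotlib 3.10.9 in Python 3.11.15. The number of arrays limits the precision.

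The members and lists were chosen with earlier results of these data known. Members named are the 6 of lowest adjusted p past the test in each direction and the 3 of smallest difference in each comparison with control and in QKO minus E2f TKO, the 6 of lowest adjusted p in the other 2 comparisons, paralogues and well-studied members, and members within 20 Mb of a deleted gene. Up to 3 genes per pathway list were eligible. Other names are marked as chosen after their values were seen.

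Replicate numbers were not used as pairs, since no label ties a number to a shared source. Alternatives were quantile normalization, arrays centred on the median or 75th percentile, only the brighter genes (mean above the median gene), averaged probe sets, no probe sets ending in _s_at or _x_at, only the groups compared, a trended robust eBayes, array weights, the replicate block, dropping E2f TKO 2 and E2f TKO 5, and leaving out each array. The brightest probe set below a mean of 13 was chosen after seeing the data.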

Additional observations from a re-analysis of the deposited data

Results flagged for a closer look

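In the groups of 4 or 5 arrays, 116 groups over the 29 named members were examined for a single array far from the others. In 4 of them 1 array stood apart, and chance alone gives about 1 in 20. Rplp0 read 14.14 in E2f TKO 1, against 14.33 to 14.38 in the other 4 arrays, and 13.79 in Myc KO 2, against 13.98 to 14.02. Rps6 read 9.56 in QKO 4, against 9.21 to 9.27. Rps16 read 3.94 in E2f TKO 1, above the 3.57 to 3.67 of the others, at a signal below the array medians. E2f TKO 1 is also the lowest of its group for 42 of 46 members, and Myc KO 2 for 39, with the shares of all genes not computed.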

How the results depend on the processing

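In Myc KO against control, 28 members were lower as reported. That became 17 of 30 with the brightest probe set below a mean of 13, whose median was -0.48, not -0.32, and where 4.66% of all genes were lower (4.72% as reported). In QKO against control, 28 became 17 after quantile normalization and 16 of 30 below a mean of 13 (11.5% and 12.6% of all genes lower, 12.6% as reported), and the median of -0.28 became -0.37 with arrays centred on the median and -0.38 below a mean of 13. In QKO against E2f TKO, 16 became 10 after quantile normalization, 33 with arrays centred on the median, 8 with only the groups compared, 28 with array weights and 5 once the arrays labelled E2f TKO 2 and E2f TKO 5 were dropped. The shares of all genes lower in these fits were 6.93%, 13.3%, 4.23%, 9.94% and 5.29%, against 7.95% as reported, and the median of -0.20 became -0.36 below a mean of 13. In QKO against Myc KO, 0 became 1, a higher call, with the mean of the probe sets and without those ending in _s_at or _x_at. The cause of these moves was not tested, except that fewer arrays or members entered some. Reversed values came only with the brightest probe set below a mean of 13: Rps18 0.016 in Myc KO and 0.084 in QKO against E2f TKO, Rpsa 0.019 in Myc KO and Rps4x 0.066 in QKO.

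Leaving out each of the 18 arrays gave 14 to 33 lower members in Myc KO (median -0.35 to -0.29), 22 to 34 in QKO (-0.29 to -0.25), 12 to 34 in QKO against E2f TKO (-0.27 to -0.17), and 0 to 0 in E2f TKO (-0.09 to -0.002), QKO against Myc KO (0.02 to 0.08) and the interaction (0.05 to 0.13). With the replicate block, 25 were lower in Myc KO, 25 in QKO, 16 in QKO against E2f TKO and 0 in the other comparisons, and 8 of 18 arrays had their best partner at their own number. Over 25 same-numbered pairs the correlation of residuals ran from -0.16 to 0.35, so whether the numbers mark a shared source was not settled. A fit of only the groups compared does not apply to the interaction, which needs all 4 groups. Of the values of named members over these alternatives, 3233 kept their direction and side of the threshold, 115 lost the call, 72 gained it and 4 reversed. Signals near 14 and below the array medians limit what a difference can show.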
